A study of Mus musculus with 15 samples.

Results

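The Hox genes encode homeodomain transcription factors that stand in 4 clusters, HoxA to HoxD, and the 38 genes described here are the listed members of these clusters among 22202 protein-coding genes with a start on chromosomes 1 to 19 and X in the mm9 annotation. They comprised 10 genes of HoxA on chromosome 6, 10 of HoxB on chromosome 11, 9 of HoxC on chromosome 15 and 9 of HoxD on chromosome 2, and were chosen by name. Chromatin marks were mapped by ChIP-seq in C10 cells, a derivative of the mouse HAFTL pre-B cell line that carries C/EBPαER-GFP, a fusion of the myeloid factor C/EBPα that enters the nucleus when estradiol is added. H3K4Me1, H3K27Ac and H3K27Me3 were each measured in 1 library at 0, 3, 12, 24 and 48 hours post-induction (hpi), which gave 15 libraries. The labels give induction as β-estradiol with IL-3 and CSF-1, and name ethanol as the solvent for control cells. The labels give the same cell line and fusion for all 15 libraries, and no induced cells without the fusion stood beside them.

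Hox genes are laid out along each cluster in the order in which they are used along the body axis, with low-numbered (anterior) paralogues at one end and high-numbered (posterior) paralogues at the other. Where they are silent, Polycomb complexes cover them with H3K27Me3, while the Trithorax group keeps active members open. H3K27Ac marks active promoters and enhancers and H3K4Me1 marks enhancers, also before they are active. In blood, Hoxa9, Hoxa10, Hoxb4 and their neighbours are known as regulators of stem and progenitor cells that are turned down as cells mature, and Hoxb8 is known for keeping myeloid progenitors in a dividing state.

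Levels were counted as tags, that is, sequenced fragments assigned to 1 position, in 3 kb around each gene start (5 kb for H3K27Me3) after each library had been thinned to the depth of the smallest of its mark. This left 15338280 tags for H3K27Me3, 10913733 for H3K4Me1 and 15216488 for H3K27Ac, and an average window of the genome then held 30.5, 14.2 and 19.3 tags. A start was called enriched at 50 tags for H3K27Me3, 28 for H3K4Me1 and 35 for H3K27Ac, the counts that a Poisson distribution around these means reaches with a probability below 0.001. With 1 library per mark and time there was no replicate and no test, and all intervals below (95%, exact) cover counting error only. The 5 kb windows of 8 members overlapped that of a neighbour, as did the 3 kb windows of Hoxb7 and Hoxb8, so their counts share tags. Each library comes from a population of cells, in which fewer marked cells and less of the mark per cell cannot be told apart.

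In the H3K27Ac set the libraries at 0 and 3 hpi stood apart from the rest. Within 50 kb of Adam6b, a gene inside the immunoglobulin heavy chain locus, these libraries held 573 and 426 tags, against 0 to 6 tags in each of the other 13 libraries, where the genome mean would give 474 to 645. Whether these 2 libraries came from another stock of the cells was not tested, so that in H3K27Ac a difference between stocks and a change after 0 or 3 hpi cannot be told apart. For the main H3K27Ac changes below, the change from 12 hpi is therefore set beside that from 0 hpi. The cells carried the marks of their type: H3K27Ac at all 8 pre-B cell markers was enriched at 0 hpi and at least 2-fold lower at 48 hpi, and at all 7 macrophage markers it was at least 2-fold higher at 48 hpi. Against 12 hpi these counts were 5 of 8 and 3 of 7. None of 4 T cell and none of 3 fibroblast markers was enriched for H3K27Ac at either time, and 1 of 3 erythroid markers was, at both.

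Across the 38 starts H3K27Me3 was common and the active marks were rare. H3K27Me3 was enriched at 24 of 38 starts at 0 hpi, against 21.5% of all starts, and at 24 of 38 at 48 hpi, against 23.2%. H3K4Me1 was enriched at 8 of 38 at 0 hpi and 5 of 38 at 48 hpi, where the share over all starts was 43.8% and 39.8%. H3K27Ac was enriched at 5 of 38 and 4 of 38, against 45.5% and 46.4%. The median H3K27Me3 level of the members was 2.44-fold the genome mean at 0 hpi and 2.18-fold at 48 hpi, while the median over all starts was 0.786-fold and 0.753-fold. Their median H3K27Ac level was 0.259-fold and 0.207-fold the mean, and over all starts 0.776-fold and 1.09-fold.

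**Figure D1:**
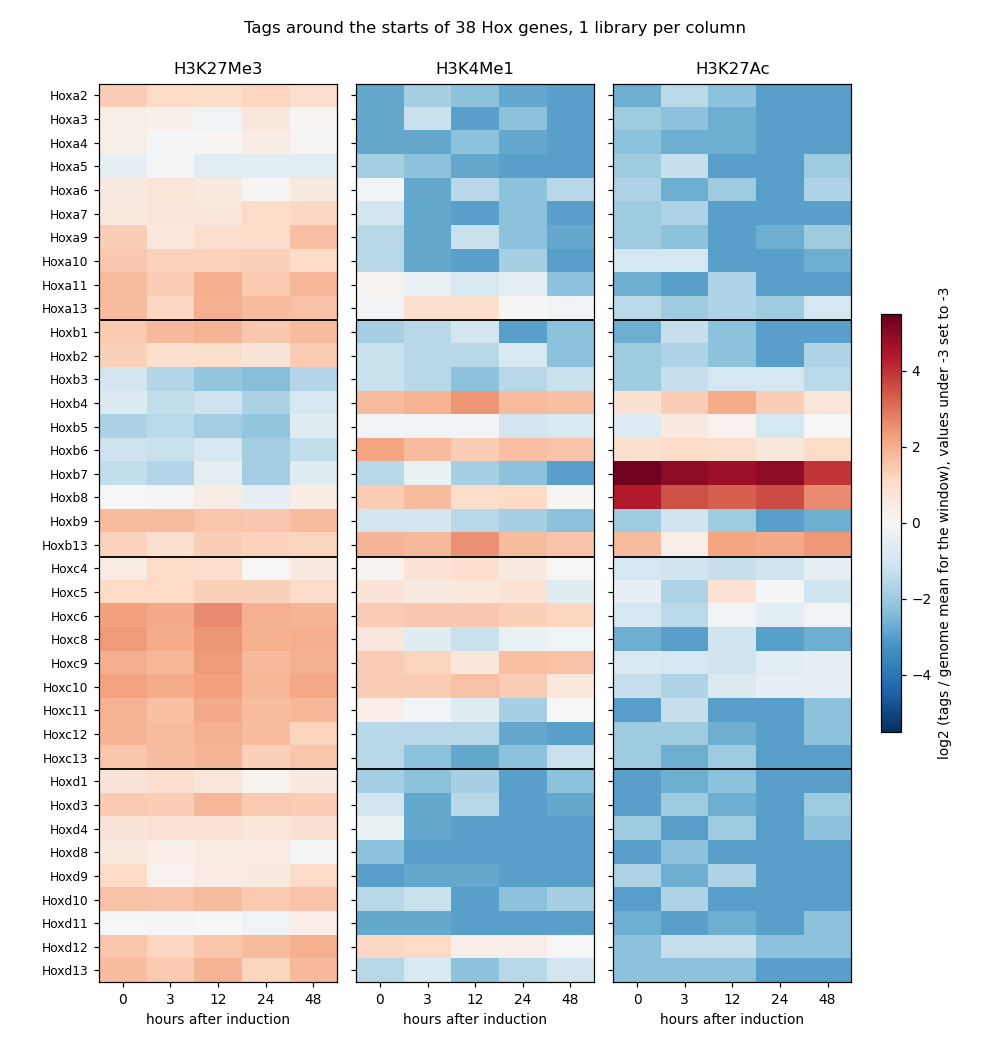
Tags around the starts of the 38 Hox genes in the 15 libraries, as log2 of the count over the genome mean for a window of that size (red above the mean, blue below it; black lines separate the clusters). H3K27Me3 is above the mean at most starts of HoxA, HoxC and HoxD and at the outer members of HoxB, and below it from Hoxb7 to Hoxb3, while H3K27Ac is far above the mean at Hoxb7 and Hoxb8.

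The clusters differed in how they carried H3K27Me3. At 0 hpi HoxC held 3.68 times the genome mean over its 116 kb (interval 3.54 to 3.83), HoxD 2.36, HoxA 2.23 and HoxB 2.05. Of the 9 HoxC starts 8 were enriched, of the 9 HoxD starts 7, of the 10 HoxA starts 5 and of the 10 HoxB starts 4. By paralogue group, 15 of 16 starts of groups 9 to 13, the posterior genes, were enriched at 0 hpi, against 3 of 11 in groups 5 to 8 and 6 of 11 in groups 1 to 4. In all, 20 starts were enriched at all 5 times, 12 at none and 6 at some of them. The shares of all starts enriched at all 5 times or at none are not given here. At single times 20.1% to 23.2% of all starts were enriched. Just inside the limit at 0 hpi stood Hoxd1 and Hoxd4, each with 50 tags, and just outside it Hoxa7 and Hoxd8, each with 44.

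The highest H3K27Me3 levels stood in the middle of HoxC. Hoxc6 had 146, 131, 184, 118 and 110 tags at 0, 3, 12, 24 and 48 hpi. Hoxc8, which patterns the thoracic spine, had 155, 126, 163, 119 and 122 tags. Hoxc10, which acts in the lumbar region and hindlimb, had 141, 125, 146, 107 and 133 tags. All of these were above the limit of 50 tags in every library, and the 3 genes could not be ranked, since their order changed between times.

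HoxB was divided. H3K27Me3 was enriched at Hoxb13 and Hoxb9 on one side and at Hoxb2 and Hoxb1, the anterior hindbrain genes, on the other, in all 5 libraries. Between them a run of 65 kb (chr11:96145001-96210000) with the starts of Hoxb7, Hoxb6, Hoxb5, Hoxb4 and Hoxb3 had no enriched 5 kb bin at any time. This run held 163, 151, 142, 108 and 153 H3K27Me3 tags, or 0.41, 0.38, 0.358, 0.272 and 0.385 of the genome mean. The longest such runs in the other clusters were 10 kb in HoxA, at Hoxa3, and 5 kb each in HoxC and HoxD. In HoxA the neighbouring starts of Hoxa3, Hoxa4, Hoxa5 and Hoxa6 were enriched in no library either, at mean levels of 1.19, 1.11, 0.72 and 1.38 times the genome mean. Bins between these starts passed the limit at 0 and at 48 hpi, which parted that stretch. Over the HoxB run H3K4Me1 was 2.97 times the mean at 0 hpi and 1.97 times at 48 hpi, and H3K27Ac 13 times at 0 hpi, 9.97 times at 12 hpi and 6.71 times at 48 hpi.

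**Figure D2:**
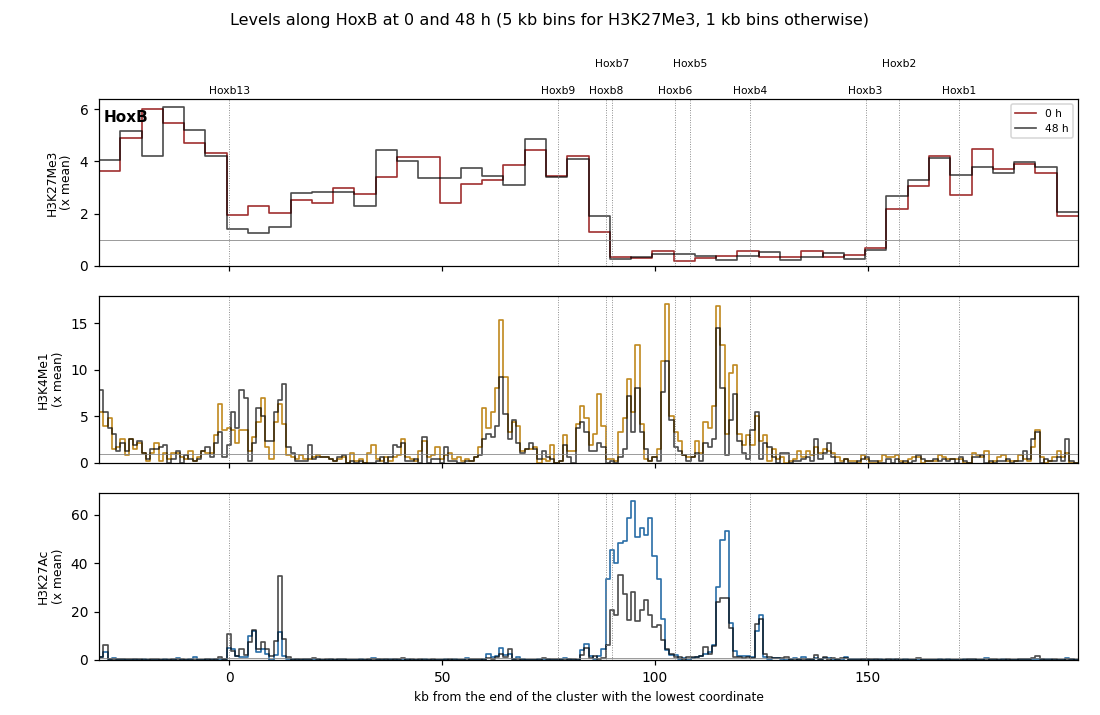
Levels of the 3 marks along HoxB, in 5 kb bins for H3K27Me3 and 1 kb bins otherwise, relative to the genome mean (grey line), at 0 hpi (colour) and 48 hpi (dark line). Dotted lines are member starts. The stretch from Hoxb7 to Hoxb3 is low in H3K27Me3, and H3K27Ac stands in a 17 kb block around Hoxb8 and Hoxb7, a 15 kb block around Hoxb4 and a 13 kb stretch next to Hoxb13.

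Members inside this run had the lowest H3K27Me3 of the 38. Hoxb3 had 15, 10, 7, 6 and 10 tags, Hoxb5 had 9, 11, 8, 7 and 19 tags, and Hoxb6 had 14, 13, 16, 8 and 12 tags. Hoxb4, known for expanding blood stem cells, had 18, 12, 14, 9 and 16 tags. All of these were under the mean of 30.5 in every library. Hoxb5 was the only member at least 2-fold higher in H3K27Me3 at 48 than at 0 hpi (1 of 37 with a mean of at least 10 tags, against 2.2% of all starts), on few tags, 2.11-fold, with a log2 interval of -0.14 to 2.41. No member was at least 2-fold lower (0 of 37, against 4.02% of all starts). Hoxb7, with 12, 10, 22, 8 and 19 tags, and Hoxd8, with 44, 39, 40, 42 and 28 tags, came next in size of change, with log2 values of 0.66 (-0.45 to 1.84) and -0.65 (-1.39 to 0.06).

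The strongest H3K27Ac lay on a 17 kb block that overlaps this run and begins just before it, from the Hoxb8 start to the stretch before the Hoxb6 start (chr11:96143001-96160000). It held 4266, 3004, 2765, 3137 and 1787 tags, 2.39-fold fewer at 48 than at 0 hpi (log2 change -1.26, interval -1.34 to -1.18). Against 12 hpi the change was -0.63 (-0.72 to -0.54). Scaled by bins enriched at all 5 times, the change of the block from 0 hpi was -0.84, which is less than 2-fold. The 1 kb bin with the most H3K27Ac in any library of HoxB was part of it, at chr11:96150001-96151000 in the Hoxb7 gene, with 424, 232, 214, 275 and 181 tags (log2 -1.23 from 0 hpi and -0.24 from 12 hpi, the latter with an interval of -0.54 to 0.05). H3K27Me3 over the block was low at all times, with 44, 40, 53, 25 and 53 tags, or 0.424 of the mean at 0 hpi and 0.51 at 48 hpi.

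At the starts themselves, Hoxb7 had 768, 578, 500, 593 and 296 H3K27Ac tags and Hoxb8 had 401, 217, 191, 234 and 119. Both were highest at 0 hpi, lowest at 48 hpi and enriched in every library. From 0 to 48 hpi Hoxb7 was 2.59-fold lower (log2 -1.38, interval -1.57 to -1.18) and Hoxb8 3.37-fold lower (log2 -1.75, -2.06 to -1.45). From 12 to 48 hpi they were 1.69-fold and 1.61-fold lower. They were the only 2 of 11 members with a mean of at least 10 tags that were at least 2-fold lower than at 0 hpi, as were 15% of all starts. Against 12 hpi, 2 of the 11 passed again but they were others, Hoxb4 (2.55-fold, on 79 and 31 tags) and Hoxc5 (3.67-fold, on 33 and 9 tags), where 7.25% of all starts did. With levels set relative to the bins that passed the limit at every time, the changes were -0.96 and -1.33, so Hoxb7 no longer passed 2-fold. No member was at least 2-fold higher against either time (9.75% of all starts were against 0 hpi and 4.23% against 12 hpi), but with that scaling 4 were higher than at 0 hpi, and with 6 kb windows 2 were.

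The sequences of 3 acetylated places outside exons are shown because they lie between member starts and carried the most H3K27Ac there. Each is the 300 bases without an exon that held most H3K27Ac tags over the 5 libraries between a pair of neighbouring members (mm9, plus strand, CpG in capitals). The first, chr11:96153221-96153520, lies inside the gene 0610040B09Rik between Hoxb7 and Hoxb6 and held 150, 93, 108, 111 and 77 tags. It ends shortly before the most upstream start of Hoxb6 (chr11:96153790, described below). The second, chr11:96172409-96172708, lies between Hoxb5 and Hoxb4 outside any annotated gene and held 149, 101, 121, 99 and 64 tags. The third, chr15:102849496-102849795, lies in an intron of Hoxc4 and held 55, 4, 37, 47 and 38 tags. It begins shortly after the most upstream start of Hoxc4 (chr15:102849367, described below).
Hoxb7 to Hoxb6: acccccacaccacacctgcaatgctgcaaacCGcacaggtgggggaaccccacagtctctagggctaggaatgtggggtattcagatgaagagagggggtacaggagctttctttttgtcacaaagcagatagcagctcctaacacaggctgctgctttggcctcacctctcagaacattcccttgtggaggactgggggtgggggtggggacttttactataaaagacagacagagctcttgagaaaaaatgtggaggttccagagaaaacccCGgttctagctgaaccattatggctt
Hoxb5 to Hoxb4: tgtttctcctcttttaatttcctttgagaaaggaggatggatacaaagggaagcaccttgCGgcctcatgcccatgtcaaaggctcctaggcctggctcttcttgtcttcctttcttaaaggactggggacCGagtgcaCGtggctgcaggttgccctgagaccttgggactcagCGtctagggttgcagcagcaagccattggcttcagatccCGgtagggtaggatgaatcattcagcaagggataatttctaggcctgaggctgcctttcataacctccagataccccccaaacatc
Hoxc5 to Hoxc4: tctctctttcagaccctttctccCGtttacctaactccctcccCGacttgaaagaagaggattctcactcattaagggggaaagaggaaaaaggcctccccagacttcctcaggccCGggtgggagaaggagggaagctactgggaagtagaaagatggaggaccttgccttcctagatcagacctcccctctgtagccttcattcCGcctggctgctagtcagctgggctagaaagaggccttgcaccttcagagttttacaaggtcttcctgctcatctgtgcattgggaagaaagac
They held 2, 5 and 4 CpG, with CpG at 0.101, 0.25 and 0.195 of the number their base composition would give. The 3 were searched on both strands for TTGCNNAA (C/EBP type), GAGGAAGT (PU.1 type) and TGATTNAT (HOX-PBX type). The first held none of them. The second held TTCAGCAA at position 235, a match to TTGCNNAA on the other strand, and ATGAATCA at position 227, a match to TGATTNAT on the other strand, and these matches adjoin without overlap. The third held ACTTCCTC at position 104, a match to GAGGAAGT on the other strand. Of the central 300 bases of the 1 kb bins enriched for H3K27Ac at 0 hpi, 11.7% held TTGCNNAA, 2.83% GAGGAAGT and 3.66% TGATTNAT. These are matches of letters, and binding was not analysed here.

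Hoxb4 and Hoxb6 carried H3K4Me1 with moderate H3K27Ac at their starts. Hoxb4 had 47, 53, 76, 47 and 45 H3K4Me1 tags and 35, 50, 79, 50 and 31 H3K27Ac tags, highest at 12 hpi for both marks. Its H3K27Ac was higher at 12 than at 0 hpi (log2 1.17, interval 0.58 to 1.79) and at 48 hpi differed from 0 hpi by less than counting error (-0.18, -0.92 to 0.56), while it was lower at 48 than at 12 hpi (-1.35, -2.0 to -0.73). The 15 kb around it with enriched H3K27Ac bins (chr11:96167001-96182000) held 1302, 1003, 1324, 1121 and 915 tags (-0.51 from 0 hpi and -0.53 from 12 hpi on the log2 scale). Scaled by bins enriched at all 5 times, the change of these 15 kb from 0 hpi was -0.09. Hoxb6 had 64, 47, 37, 45 and 42 H3K4Me1 tags and 36, 39, 38, 30 and 40 H3K27Ac tags, with an H3K27Ac change within counting error from 0 hpi (0.15, -0.53 to 0.84) and from 12 hpi (0.07, -0.60 to 0.75). Hoxb3 had 6, 5, 3, 5 and 6 H3K4Me1 tags and 5, 8, 10, 10 and 7 H3K27Ac tags, so it lay in the run without H3K27Me3 and was under the mean for both other marks too.

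Hoxb13, the gene at the outer posterior end, was the only member enriched for all 3 marks at the start used here. The upstream starts of Hoxa3, Hoxa7 and Hoxc6, described below, were enriched for all 3 too, in 5, 3 and 3 libraries. Hoxb13 had 74, 58, 79, 74 and 72 H3K27Me3 tags, 52, 49, 82, 47 and 42 H3K4Me1 tags, and 64, 24, 86, 81 and 101 H3K27Ac tags. H3K27Ac was lowest at 3 hpi, the 1 library under the limit of 35, and highest at 48 hpi (log2 change from 0 hpi 0.66, interval 0.19 to 1.13; from 12 hpi 0.23, -0.20 to 0.66). Whether the marks sat on the same copies of the gene cannot be told from these libraries. The H3K27Me3 counts are from 5 kb centred on the start, and fixed 5 kb bins gave another picture at 48 hpi. At 0 hpi the enriched run chr11:95940001-96140000 held the Hoxb13 start. At 48 hpi the enriched run inside the cluster on that side was chr11:96070001-96145000, which left the start out. The 100 kb of flank before the start still carried H3K27Me3, at 3.71 times the mean at 0 hpi and 3.93 times at 48 hpi. In the 13 kb next to the Hoxb13 start (chr11:96056001-96069000) H3K27Ac held 358, 153, 984, 907 and 655 tags, with a log2 change to 48 hpi of 0.87 from 0 hpi (interval 0.68 to 1.06) but -0.59 from 12 hpi (-0.73 to -0.44), so that the direction depended on the reference. All later libraries were above those at 0 and 3 hpi, the same 2 libraries that stood apart at the immunoglobulin locus. The part that those libraries have in this result was not tested. Over the same 13 kb H3K27Me3 held 163, 140, 173, 126 and 112 tags (log2 change -0.54, -0.90 to -0.19) and H3K4Me1 215, 279, 422, 322 and 297 (0.47, 0.21 to 0.73). The 1 kb bin with the largest gain of H3K27Ac in HoxB lay here, at chr11:96067001-96068000 outside any annotated gene, with 75, 31, 303, 267 and 224 tags (log2 1.58 from 0 hpi and -0.44 from 12 hpi). The 250 bases before the Hoxb13 start (mm9, chr11:96055380-96055629, plus strand, CpG in capitals) are shown because this start carried all 3 marks.
Hoxb13: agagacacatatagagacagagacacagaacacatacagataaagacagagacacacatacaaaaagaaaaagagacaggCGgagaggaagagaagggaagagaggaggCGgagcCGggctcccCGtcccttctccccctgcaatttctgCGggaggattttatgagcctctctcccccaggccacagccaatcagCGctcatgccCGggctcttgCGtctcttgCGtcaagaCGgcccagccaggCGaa
They held 11 CpG, against a median of 12.5 in the same stretch of the 38 members (range 1 to 41) and 9.0 over all starts.

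**Figure D3:**
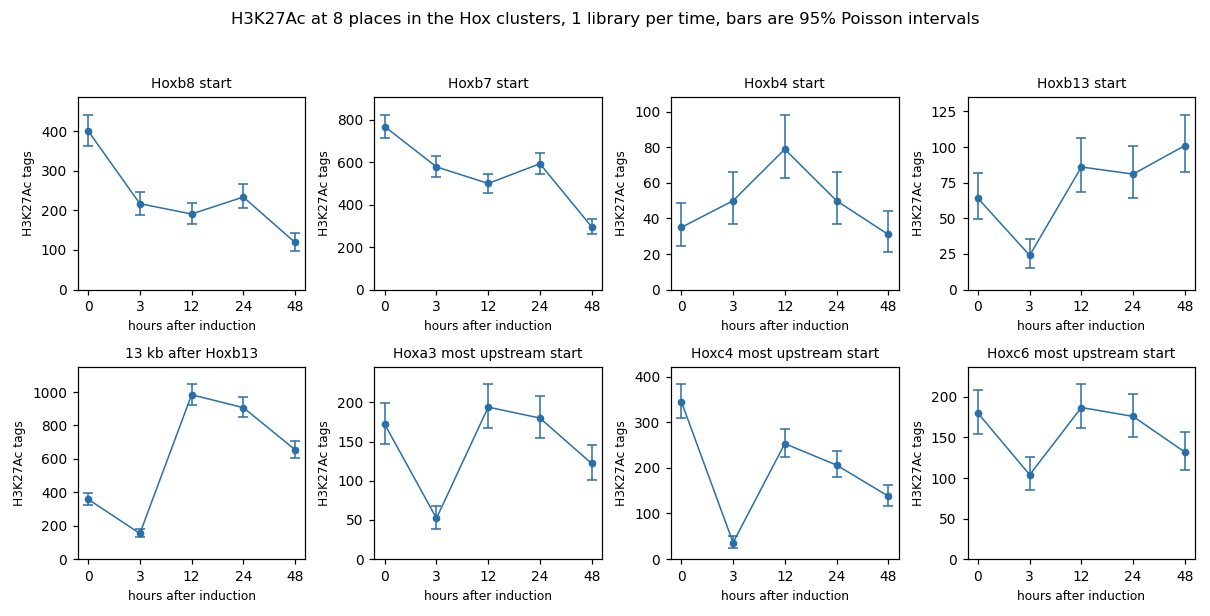
H3K27Ac tags at 4 member starts, in the 13 kb next to Hoxb13, and at the most upstream starts of Hoxa3, Hoxc4 and Hoxc6, by time, with 1 library per time and 95% Poisson intervals. Hoxb8 and Hoxb7 are highest at 0 and lowest at 48 hpi, and Hoxb13, the 13 kb after it, and the upstream starts of Hoxa3, Hoxc4 and Hoxc6 are lowest at 3 hpi.

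Several members have a second, more distant start, and in HoxA and HoxC some of these distant starts carried acetylation that the nearer ones did not. Of the 10 members whose most upstream start lies over 1.5 kb from the start used above, 5 were enriched for H3K27Ac there at all 5 times, near the 38.9% found over the 1903 such starts of all genes. Those of Hoxa9, Hoxa10, Hoxb3, Hoxd3 and Hoxd4 were enriched for H3K27Ac in no library. The upstream start of Hoxa3 (chr6:52163066, 40418 bases away, between Hoxa6 and Hoxa7) had 172, 52, 194, 180 and 122 tags, against 5, 4, 3, 2 and 1 at the nearer start. The acetylated 3 kb there (chr6:52161001-52164000) also hold exons of 2700086A05Rik and Hoxa6. The upstream start of Hoxa7 (chr6:52171853) had 48, 78, 49, 47 and 61 tags, against 5, 6, 2, 2 and 2. The upstream start of Hoxc6 (chr15:102828688) had 180, 104, 187, 176 and 132 tags, against 10, 7, 17, 13 and 17. The upstream start of Hoxc4 (chr15:102849367) had 345, 36, 253, 206 and 138 tags, against 10, 9, 8, 9 and 14. The upstream start of Hoxb6 (chr11:96153790) lies in the 17 kb block of HoxB and had 1052, 901, 764, 797 and 411 tags. Those of Hoxa3, Hoxa7 and Hoxc6 were enriched for H3K27Me3 too in all 5 libraries (70, 74, 77, 64 and 87 tags at Hoxa3), while those of Hoxc4 and Hoxb6 were not in any. Which transcript starts these cells use was not analysed here.

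Many of the acetylated places in HoxA, HoxB and HoxC held fewer H3K27Ac tags at 3 hpi than before and after, though not the upstream start of Hoxa7, which was higher at 3 than at 0 hpi (log2 0.70, interval 0.16 to 1.25). At the upstream start of Hoxc4 the count was 9.58-fold lower at 3 than at 0 hpi (log2 -3.26, interval -3.80 to -2.76) and at that of Hoxa3 3.31-fold lower (-1.73, -2.20 to -1.27), and at 12 hpi they held 253 and 194 tags. H3K4Me1 did not dip there: it was 131, 143, 146, 116 and 82 at the Hoxc4 and 56, 75, 66, 42 and 48 at the Hoxa3 upstream start. Of 50 bins of 1 kb in the clusters that were enriched at 0 hpi, 23 were at least 2-fold lower at 3 hpi, against 25.5% of all bins enriched at 0 hpi, and 20 of the 50 were both lower at 3 hpi and at least 2-fold higher again at 12 than at 3 hpi, against 6.29% of all bins enriched at 0 hpi. They fell in all 3 clusters with such bins: 4 of 5 in HoxA, 12 of 35 in HoxB and 7 of 10 in HoxC were lower at 3 hpi. At 48 hpi 21 of the 50 were at least 2-fold lower than at 0 hpi, against 40.7% of all, and of the 63 enriched at 12 hpi 16 were at least 2-fold lower at 48 than at 12 hpi, against 17.1% of all such bins. Neighbouring bins share the same acetylated place. This pattern was chosen after its values were seen. The 3 hpi library also had the smallest share of its H3K27Ac tags in enriched bins (62.7%, against 65.9% to 77.6%), and its part in the pattern was not tested.

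**Figure D4:**
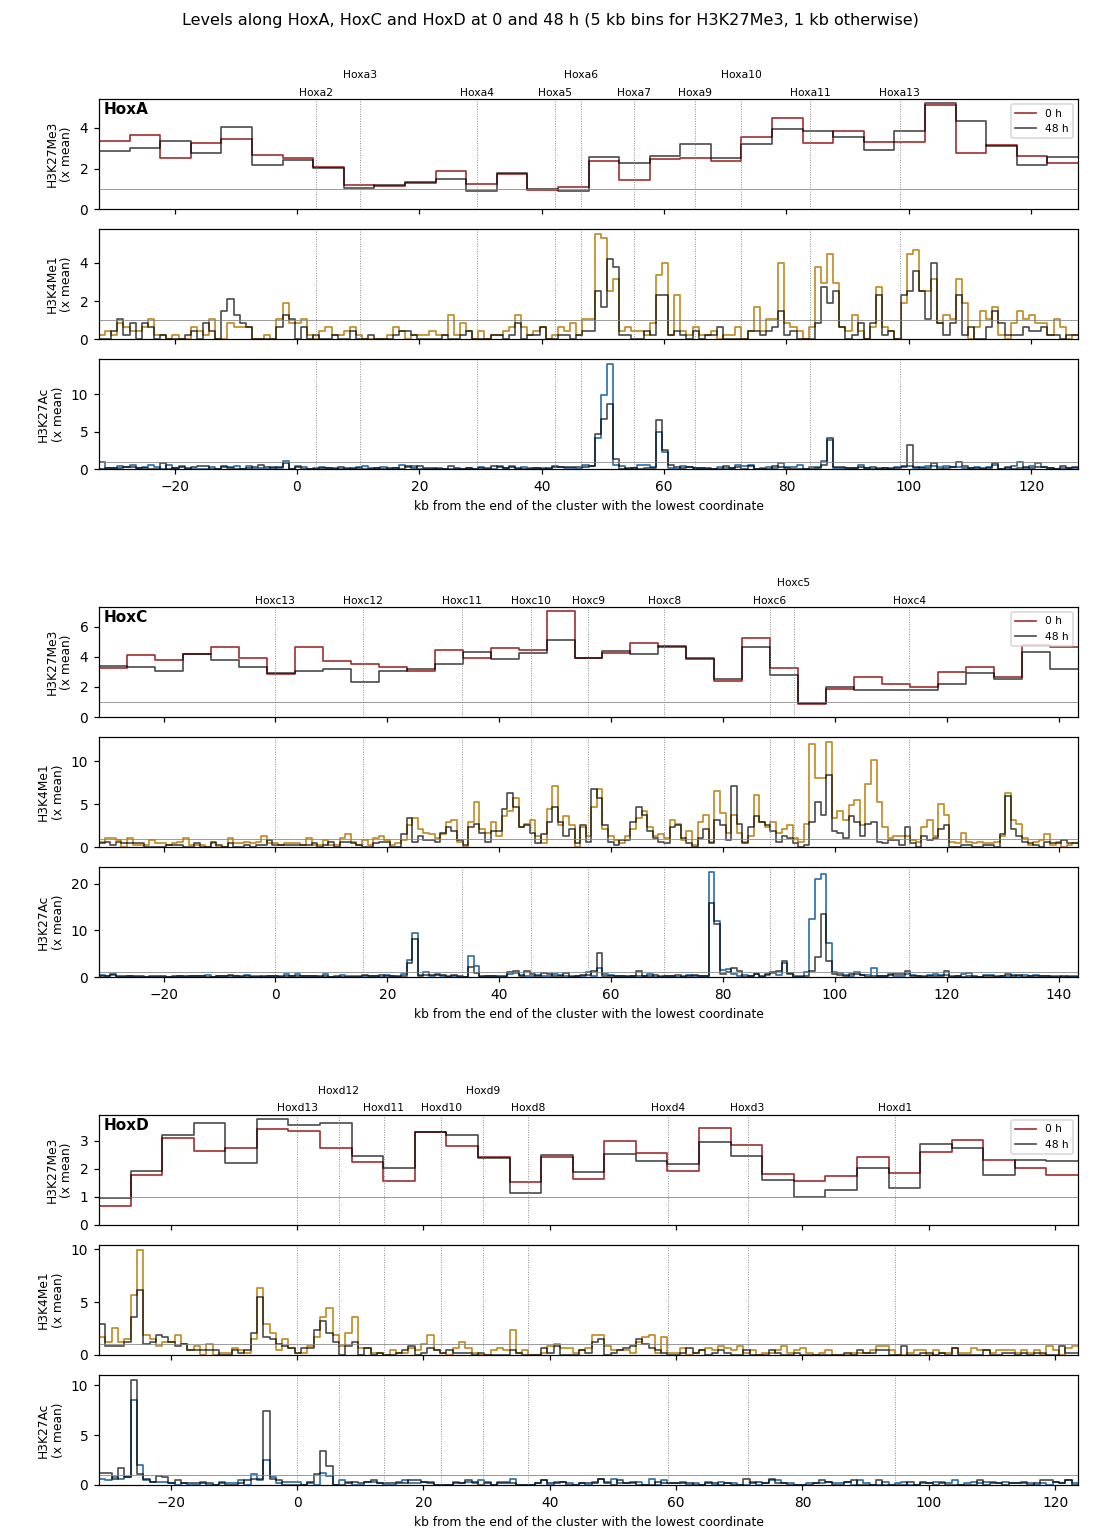
Levels of the 3 marks along HoxA, HoxC and HoxD, in 5 kb bins for H3K27Me3 and 1 kb bins otherwise, relative to the genome mean (grey line), at 0 hpi (colour) and 48 hpi (dark line), with member starts as dotted lines. H3K27Ac stands as isolated places of 1 to 4 kb in HoxA and HoxC, and inside HoxD 1 bin of 1 kb is enriched.

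The HoxA genes known from blood lacked active marks at the starts used here, though the upstream start of Hoxa7 carried H3K27Ac (above) and that of Hoxa10 H3K4Me1 in 3 of 5 libraries, with 29, 26, 32, 29 and 11 tags. Hoxa9, whose product is a driver of myeloid leukaemia, had 77, 46, 60, 61 and 95 H3K27Me3 tags, 5, 2, 6, 3 and 2 H3K4Me1 tags, and 5, 4, 0, 3 and 5 H3K27Ac tags. Hoxa10, its neighbour, had 86, 73, 73, 75 and 65 H3K27Me3 tags, 5, 2, 1, 4 and 0 H3K4Me1 tags, and 10, 10, 1, 2 and 3 H3K27Ac tags. H3K27Me3 was enriched in 4 of 5 libraries at Hoxa9 and in all 5 at Hoxa10. Hoxa7 had 44, 49, 47, 63 and 68 H3K27Me3 tags, under the limit in the first 3 libraries and over it in the last 2 (log2 change 0.63, interval 0.06 to 1.21), with 7, 2, 1, 3 and 1 H3K4Me1 tags. Hoxa5 had 21, 29, 20, 20 and 20 H3K27Me3 tags, 4, 3, 2, 1 and 1 H3K4Me1 tags, and 5, 8, 2, 2 and 5 H3K27Ac tags, so none of the 3 marks was above the genome mean there. Over the whole of HoxA 64.5% of the length lay in enriched H3K27Me3 bins at 0 hpi and 64.5% at 48 hpi, against 17.6% and 18.5% of the genome. In between, the HoxA share was 49.3%, 64.5% and 69.6% at 3, 12 and 24 hpi. These shares depend on the 5 kb bins, and in 1 kb bins they were 33.1% and 37.2% for HoxA at 0 and 48 hpi. In 1 kb bins the gain of H3K27Ac was largest at chr6:52171001-52172000, at the upstream start of Hoxa7, with 32, 60, 38, 36 and 42 tags (log2 0.39 from 0 hpi, interval -0.31 to 1.1, and 0.14 from 12 hpi), and the highest bin was chr6:52163001-52164000, at that of Hoxa3, with 90, 29, 114, 108 and 56 (log2 -0.68 from 0 hpi and -1.03 from 12 hpi).

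In HoxC, H3K27Me3 covered 95.7% of the length at 0 and at 48 hpi (74.3% and 64.8% in 1 kb bins), but 82.7% at 24 hpi. The 5 kb without an enriched bin, at chr15:102845001-102850000, held H3K4Me1 at 6.29 times the mean at 0 hpi, against 2.48 over the cluster. At the starts, Hoxc6 had 38, 40, 40, 35 and 32 H3K4Me1 tags, Hoxc9 37, 33, 22, 45 and 44, and Hoxc10 37, 37, 43, 38 and 21. With Hoxb13 and Hoxd12 (31, 30, 17, 18 and 14 tags) these were the 5 members enriched for both H3K27Me3 and H3K4Me1 at 0 hpi, against 7.26% of all starts, and 3 of them, Hoxb13, Hoxc6 and Hoxc9, were so at 48 hpi, against 7.32%. The highest 1 kb bin of H3K27Ac in HoxC lay at chr15:102829001-102830000, next to the upstream start of Hoxc6, with 145, 83, 138, 132 and 102 tags. The largest gain was at chr15:102809001-102810000 inside Hoxc9 and Gm20398 but in no exon, with 12, 10, 13, 26 and 34 tags (log2 1.5 from 0 hpi, interval 0.52 to 2.59, and 1.39 from 12 hpi, 0.43 to 2.43). At the 4 kb around the upstream start of Hoxc4 (chr15:102847001-102851000) H3K27Ac was 407, 43, 281, 217 and 146 tags, 2.79-fold lower at 48 than at 0 hpi, and 0.94 lower on the log2 scale than at 12 hpi (interval -1.24 to -0.65).

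**Figure D5:**
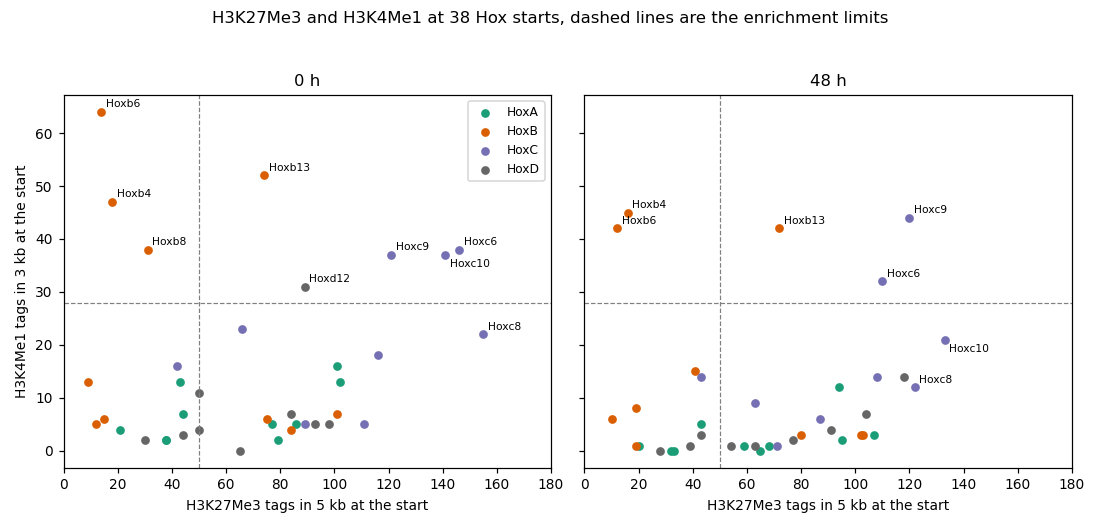
H3K27Me3 tags (x axis) against H3K4Me1 tags (y axis) at the 38 starts at 0 hpi and at 48 hpi, by cluster, with the enrichment limits as dashed lines. At 0 hpi 5 members and at 48 hpi 3 members lie above both limits, and Hoxb4 and Hoxb6 stand at low H3K27Me3 with high H3K4Me1 at both times.

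HoxD carried H3K27Me3 over 84.5% of its length at 0 hpi and 76.0% at 48 hpi (42.3% and 39.2% in 1 kb bins), and nearly no active mark. Hoxd12 and Hoxd13, the genes of the digits, had 89, 70, 87, 101 and 118 and 98, 82, 113, 72 and 104 H3K27Me3 tags. Hoxd8, Hoxd9 and Hoxd11 had the fewest H3K4Me1 tags of the 38, with 3, 0, 0, 1 and 0 tags, 0, 2, 2, 1 and 1 tags, and 2, 2, 0, 0 and 1 tags. Hoxd8, Hoxd10 and Hoxd1 had the fewest H3K27Ac tags, with 0, 4, 2, 0 and 0 tags, 0, 6, 2, 2 and 0 tags, and 2, 3, 4, 2 and 0 tags. The exact interval of a count of 0 reaches 3.69 tags, still below the genome mean of 14.2 and 19.3. Hoxd11 and Hoxd8 were also the HoxD starts with the least H3K27Me3 on average (30, 28, 30, 26 and 39 tags at Hoxd11). The one acetylated bin inside HoxD was chr2:74510001-74511000, between Hoxd13 and Hoxd12, with 8, 5, 29, 33 and 22 tags, and it was also the bin with the largest gain (log2 1.46 from 0 hpi, interval 0.24 to 2.84, but -0.40 from 12 hpi, -1.27 to 0.45).

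From 0 to 48 hpi H3K27Me3 over the clusters moved little. The log2 change was 0.02 over HoxB (interval -0.06 to 0.11), 0.00 over HoxA (-0.11 to 0.11), -0.05 over HoxD (-0.16 to 0.06) and -0.16 over HoxC (-0.24 to -0.08). The libraries at 12 hpi were higher than at 0 hpi over all 4 clusters, by 0.08 to 0.23 on the log2 scale, with an interval that took in 0 in HoxA alone, and in the 8 flanks of 100 kb by 0.01 to 0.29. At 24 hpi the change from 0 hpi was -0.04 in HoxA, -0.13 in HoxB, -0.23 in HoxC and -0.12 in HoxD. Scaling by bins of the whole genome enriched at all 5 times would add -0.15 at 12 hpi and -0.11 at 24 hpi. With bins enriched at none of the 5 times, 0.11 would be added at 12 hpi and 0.11 at 24 hpi, so the 2 scalings differ in sign. Of the 38 members, 3 had an interval that left out 0, Hoxa7 (above), Hoxc6 (-0.41, -0.78 to -0.04) and Hoxc12 (-0.64, -1.10 to -0.20). Among 38 such intervals some can leave out 0 by counting error alone. The share of all starts that did so is not given here. Scaled by bins enriched at none of the 5 times, the 3 changes were 0.78, -0.25 and -0.49. Scaled by bins enriched at all 5 times, they were 0.46, -0.58 and -0.81. The flanks carried H3K27Me3 as well, at 1.51 to 3.91 times the genome mean at 0 hpi, so HoxC, at 3.68, lay between its own flanks at 3.33 and 3.91. HoxB, at 2.05, was below both of its flanks at 3.71 and 3.53. HoxA, at 2.23, was also below its flanks at 2.76 and 2.36, the latter with an overlapping interval. HoxD, at 2.36, was above its flanks at 1.51 and 2.12.

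H3K4Me1 was lower at 48 than at 0 hpi over every cluster, with log2 changes of -0.88 in HoxA, -0.42 in HoxB, -0.55 in HoxC and -0.87 in HoxD. HoxA and HoxD were already under the genome mean at 0 hpi, at 0.856 and 0.667 times. In the flanks of 100 kb the changes ran from -1.16 to 0.11. The 0 hpi library had the smallest share of its H3K4Me1 tags in enriched bins (55.6%, against 62.8% to 69.4%), and its part in these changes was not tested. Among the 14 members with a mean of at least 10 tags 13 were lower, with a median change of -0.49, and over all starts 8824 of 12855 were lower, with a median of -0.30. Of these 14, 3 were at least 2-fold lower, against 13.3% of all starts, and none was at least 2-fold higher, against 6.54%. They were Hoxc5 with 23, 20, 21, 24 and 9 tags (-1.35, -2.65 to -0.19), Hoxb8 with 38, 48, 28, 30 and 15 tags (-1.34, -2.31 to -0.45) and Hoxd12 (-1.15, -2.17 to -0.19). Scaling by bins that were enriched at no time added 0.53 to the H3K4Me1 change, and the values then ran from -0.35 in HoxA to 0.11 in HoxB, so the direction over HoxB depended on the scaling. So did that of the members, whose median was then 0.04 with none at least 2-fold lower, while 6 kb windows gave 11 at least 2-fold lower.

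H3K27Ac over HoxB was 5.71, 4.05, 4.98, 4.94 and 3.41 times the genome mean, 0.74 lower on the log2 scale at 48 than at 0 hpi (interval -0.80 to -0.69) and 0.55 lower than at 12 hpi (-0.61 to -0.49). The median log2 change over all starts from 0 to 48 hpi was -0.21. Scaled by bins enriched at all 5 times, the change over HoxB from 0 hpi was -0.33. HoxC was 1.42, 0.62, 1.36, 1.14 and 0.997 times the mean, HoxA 0.623, 0.493, 0.653, 0.548 and 0.51, and HoxD 0.21, 0.251, 0.314, 0.163 and 0.219. HoxB was thus the only cluster above 2 times the mean for H3K27Ac in any library. After Hoxb8 and Hoxb7, the largest H3K27Ac change from 0 hpi among the 11 members with enough tags was at Hoxc10, with 8, 6, 11, 14 and 14 tags (0.81, -0.55 to 2.27, and 0.35, -0.90 to 1.63, from 12 hpi).

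Base composition was set beside the levels. GC content in the 3 kb at the starts was 47.2% to 63.0% in the members (median 54.3%) and had a median of 49.1% over all starts. Across the 38 members, which share libraries and partly windows, the rank correlation of GC with mean tags was -0.01 for H3K27Me3, -0.29 for H3K4Me1 and -0.14 for H3K27Ac, where it was 0.03, 0.37 and 0.37 over all starts. With CpG observed over expected it was -0.01, -0.46 and -0.38 in the members and -0.08, 0.39 and 0.54 over all starts. H3K4Me1 and H3K27Ac went together over the members (rho = 0.71), and H3K27Me3 with neither (0.28 and -0.12). The order of the members was kept from 0 to 48 hpi with rho = 0.93 for H3K27Me3, 0.86 for H3K4Me1 and 0.81 for H3K27Ac. All of these are descriptions over 38 genes and carry no test.

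Set beside 47 other developmental homeobox genes (Dlx, Pax, Irx, Nkx and related), the Hox starts carried H3K27Me3 more often. Of the 47, 14 were enriched at 0 hpi and 14 at 48 hpi, with a median level of 1.08 and 1.01 times the mean, and no test was made of the difference. Of the 47, 4 were enriched for H3K27Ac at 0 hpi and 5 at 48 hpi, among them Lhx2, with 1071, 1025, 604, 446 and 368 tags. Of 20 genes of the Polycomb complexes 17 were enriched for H3K27Ac at both times. Of 18 with enough tags, 8 were at least 2-fold lower at 48 than at 0 hpi, against the 15% of all starts given above. They included Ezh2, the methyltransferase that sets H3K27Me3 (620, 959, 503, 362 and 265 tags, log2 -1.23), and Suz12, its partner (562, 721, 440, 357 and 255 tags, log2 -1.14). Eed, of the same list and named after its values were seen, was not lower (424, 567, 481, 589 and 483 tags, log2 0.19, interval -0.0 to 0.38). Scaling by bins enriched at all 5 times would add 0.42 to each change from 0 hpi. Ezh2 and Suz12 would then be less than 2-fold lower. Against 12 hpi 1 gene of the list, Phf19, named after its values were seen, was at least 2-fold lower (log2 -1.51), and Ezh2 and Suz12 were lower by less than 2-fold (log2 -0.92 and -0.79). Of 10 Trithorax and H3K27 demethylase genes all were enriched at both times and 1, Mll1, which maintains Hox expression in blood (507, 579, 288, 293 and 203 tags), was at least 2-fold lower than at 0 hpi but not than at 12 hpi (log2 -0.50). Its change from 0 hpi, -1.32, would also be less than 2-fold with the scaling just named. Over all starts 45.5% and 46.4% were enriched for H3K27Ac at 0 and 48 hpi. Against 12 hpi 1 gene of the Trithorax and demethylase list was at least 2-fold higher and none 2-fold lower, against 4.23% and 7.25% of all starts. It was Kdm6b, an H3K27 demethylase named after its values were seen, with 487, 104, 223, 331 and 735 tags (log2 1.72 from 12 hpi, interval 1.5 to 1.94, and 0.59 from 0 hpi, 0.43 to 0.76). Of 9 TALE genes, whose products bind DNA with Hox proteins, 3 were enriched for H3K27Ac at both times and none of 5 with enough tags differed by 2-fold or more at 48 hpi from either time. Of 3 Cdx genes, upstream activators of Hox genes, none was enriched for H3K27Ac.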

How the data were processed

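The deposited files hold positions of aligned 36 bp tags in BED form, without strand, score or count. As described by the authors, alignment to mm9 used Eland or Bowtie, mismatches were not allowed, and multi-mapping and duplicate tags were discarded. Which aligner served which library is not given in the sources used here. The files held 11041458 to 31557475 lines, and 3 of them ended in 2 lines that gave no position. They still differed in how often a position occurred (once, up to 2 or up to 205 times), so 1 tag per position was kept, placed 18 bp from its start, on chromosomes 1 to 19 and X. Each library was thinned (seed 11) to the smallest of its mark.

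Starts were those of the transcript with the longest coding sequence in GENCODE vM1 (NCBIM37, the mm9 assembly). The genome mean was taken over bins with a tag in any library of the mark. Fold changes needed a mean of at least 10 tags, with a count of 0 set to 3. Ratio intervals were exact conditional binomial ones. Members and lists were chosen with earlier results of these data known. Given in every library were the 3 highest, 3 lowest and 3 most changed members per mark, 7 Hox genes known from blood, and the top and most gained H3K27Ac bin of each cluster. Other members were named where a described region holds them, after their values were seen. Up to 2 genes of a list were named, for changes of at least 2-fold from 0 hpi, and Phf19, Eed and Kdm6b were added after their values were seen. Alternatives were other starts, window sizes, scalings, limits, minimums and bins, and 12 hpi as the H3K27Ac reference, which was chosen after seeing the data. Python 3.11.15, numpy 2.4.6, scipy 1.17.1 and pandas 2.3.3 were used, and the counting was tested on simulated data. A promoter sequence is given for Hoxb13 alone.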

Additional observations from a re-analysis of the deposited data

How the results depend on the processing

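Of 261 values under alternatives, for 35 results, 190 stayed within their counting interval or within 1.5 times the count and 65 moved further. The other 6 took the opposite sign of a main value whose interval left out 0. For the member medians this interval had the width of the counting interval of the members' summed tags, placed around the median. It is thus not an interval of the median itself. Where the main interval held 0, a change of sign was counted among the 190 or the 65. An example is HoxD in H3K27Me3, at -0.05, which became 0.10 when scaled by bins enriched at none of the 5 times. Larger windows were 6 kb (10 kb for H3K27Me3) and smaller ones 1.5 kb (2.5 kb). No paired analysis was possible because only 1 library was made per mark and time. H3K27Me3 counts of enriched starts stayed within 1.5 times under every alternative. The shares of the clusters were held to a binomial interval over 5 kb bins. It treats neighbouring bins as independent and is wide (60.4% to 96.6% for HoxD at 0 hpi). The shares left it with 1 kb bins alone: HoxA 33.1% and 37.2% at 0 and 48 hpi, HoxB 38.8% at 0 hpi, HoxC 74.3% and 64.8%, HoxD 42.3% and 39.2%. At the limit of 1e-06 they were 54.3% and 59.4% for HoxA, 57.2% and 51.5% for HoxB, 89.4% and 80.8% for HoxC, and 60.6% and 70.9% for HoxD. Scaling by bins enriched at none of the 5 times gave H3K27Me3 changes of 0.15, 0.18, -0.01 and 0.10 for HoxA to HoxD and a member median of 0.11, and scaling by bins enriched at all 5 times gave -0.17, -0.15, -0.33 and -0.22 and a median of -0.21 (0.06 with smaller windows). The single member 2-fold higher in H3K27Me3 was lost (0) with the start codon, larger windows, scaling by enriched bins or a minimum of 30 tags, and 3 passed 1.5-fold; 1 was 2-fold lower with smaller windows and 2 passed 1.5-fold.

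For H3K4Me1, scaling by bins enriched at none of the 5 times gave cluster changes of -0.35, 0.11, -0.02 and -0.34, reversing HoxB, and a median of 0.04, also reversed. Enriched starts at 0 hpi numbered 13 with larger and 4 with smaller windows, and 2 at 48 hpi with smaller windows. The median was -0.78 with larger windows. Members 2-fold lower numbered 5 at upstream starts, 11 with larger and 1 with smaller windows, 0 with that scaling, 14 without a minimum, 1 with a minimum of 30 and 7 at 1.5-fold, and 1 was 2-fold higher at upstream starts and with smaller windows.

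For H3K27Ac, 9 and 8 members were enriched at upstream starts at 0 and 48 hpi, and 3 at 0 hpi with smaller windows, the limit of 1e-06 or a 2-fold minimum. The member median, over 11 members at 0.35, was not stable: it reversed to -0.45 at upstream starts, -0.29 with smaller windows and -0.18 with a minimum of 30, and was 0.18 at the start codon, 0.05 with larger windows, 0.77 scaled by enriched bins and 0.00 against 12 hpi, an alternative chosen after seeing the data. Members 2-fold higher numbered 2 with larger windows, 4 scaled by enriched bins, 2 without a minimum and 4 at 1.5-fold, and members 2-fold lower 4 at upstream starts, 1 at the start codon, 4 with larger windows, 1 scaled by enriched bins and 8 without a minimum. Cluster changes scaled by enriched bins were 0.13 in HoxA, which reversed, -0.33 in HoxB, -0.09 in HoxC and 0.48 in HoxD. HoxB was -0.83 scaled by bins enriched at none of the 5 times and -0.55 against 12 hpi, and HoxD -0.52 against 12 hpi. Apart from what the scaling, window and minimum change by construction, the cause was not tested. Against 12 hpi 2 members were 2-fold lower in H3K27Ac as against 0 hpi, but they were Hoxb4 and Hoxc5 in place of Hoxb7 and Hoxb8. Members under a mean of 10 tags were left out of fold counts by that choice, though for H3K4Me1 Hoxa11 (-2.42, interval -4.84 to -0.61) and Hoxd4 (-3.46, -8.89 to -0.68) had intervals that left out 0.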

Other observations

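Of the 6 miRNA genes inside the clusters, Mir10a and Mir10b stand at matching places, near Hoxb4 and near Hoxd4, and their chromatin differed. Their middles lie 535 and 971 bases from those starts, so their windows overlap the windows at Hoxb4 and Hoxd4 and share tags with them. Mir10a (chr11:96178479-96178588) had 17, 12, 13, 10 and 16 H3K27Me3 tags in 5 kb and 98, 125, 175, 168 and 112 H3K27Ac tags in 3 kb, the latter enriched in every library and highest at 12 hpi. Mir10b (chr2:74564127-74564194) had 51, 58, 55, 61 and 62 H3K27Me3 tags, enriched in every library, and 5, 4, 4, 1 and 4 H3K27Ac tags. Their mature 5p forms share a seed (capitals, bases 2 to 8; RefSeq, GRCm38.p6) and are shown because the genes differ in chromatin while the seed is the same.
mmu-miR-10a-5p: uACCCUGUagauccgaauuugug
mmu-miR-10b-5p: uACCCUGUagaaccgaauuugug
The miR-196 genes, which share the seed AGGUAGU in their 5p forms, lay in H3K27Me3 in 3 clusters. Mir196a-2 in HoxC had 203, 165, 224, 138 and 143 H3K27Me3 tags, more than any of the 38 Hox starts at 0 hpi, Mir196a-1 in HoxB had 141, 145, 179, 131 and 128, and Mir196b in HoxA had 74, 55, 60, 75 and 94. None of the 3 was enriched for H3K27Ac in any library. Mir615 in HoxC had 50, 51, 51, 67 and 52 H3K27Me3 tags and at most 11 H3K27Ac tags. The 5 kb windows of Mir615, Mir196b and Mir196a-2 overlap those of Hoxc5, Hoxa9 and Hoxc9 by 3860, 2247 and 1363 bases, so these counts share tags as well. The miRNAs themselves were not measured.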
